A study of Mus musculus with 16 samples.

Results

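Mature oligodendrocytes, the myelin-forming cells of the brain, made up 8751 of the 55675 cells that passed the cell filters in 16 Drop-seq libraries of mouse hypothalamus and preoptic area (15.7%). A cell was kept when its barcode had more than 200 and fewer than 4000 detected genes and less than 15% of its unique molecular identifiers (UMIs, 1 per captured mRNA molecule) on mitochondrial transcripts. A kept cell counted as a mature oligodendrocyte when it had at least 3 of the 7 transcripts *Mobp*, *Mog*, *Mag*, *Cldn11*, *Mal*, *Ermn* and *Opalin*, no *Pdgfra* UMI, fewer than 2 *Gpr17* UMIs, and at most 1 of 12 transcripts of other cells (*Agt*, *Aqp4*, *Gja1*, *Snap25*, *Syt1*, *Flt1*, *Cldn5*, *C1qa*, *C1qb*, *Tmem212*, *Acta2*, *Dcn*). These 21 genes chose the cells and are described below without a test.

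The study asked what 4 weeks of tamoxifen, a modulator of estrogen receptors, does in this region, and whether the effect needs estrogen receptor alpha (*Esr1*) there. All mice were on a mixed CD-1 and 129P2 background, were labelled female and were 8 to 10 weeks old at the first injection. *Esr1* cKO mice carried a floxed *Esr1* allele on both copies and *Nkx2-1* Cre, which acts only in cells that descend from *Nkx2-1* expressing progenitors, so that other cells of the region keep the floxed gene. The controls, labelled wild-type, were littermates without Cre, and whether they carried floxed alleles was not given in the sources used here. Each mouse received 28 daily subcutaneous injections of tamoxifen at 0.1 mg/kg in corn oil with ethanol, or of the vehicle, also corn oil with ethanol (oil). Mice were killed 2 h after the last one. The ethanol content stated by the study was higher in the vehicle than in the tamoxifen solution. There were 3 wild-type oil, 5 wild-type tamoxifen, 4 *Esr1* cKO oil and 4 *Esr1* cKO tamoxifen mice, with 1 library each. The libraries held 2634253 to 8038158 UMIs and 212 to 766 mature oligodendrocytes (median 592), and the mature oligodendrocytes of a library held 193674 to 756859 UMIs. A mature oligodendrocyte had a median of 763 UMIs, against 658 in all other kept cells.

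Oligodendrocytes arise from dividing precursor cells, pass through a short committed stage, and then make the lipid and protein of the myelin sheath that insulates axons and lets impulses travel fast. Compact myelin is built from a few abundant proteins, myelin basic protein among them, together with cholesterol and galactolipids. Mature cells also hand metabolites to axons, and they come in states that differ by region and age, among them cells rich in *Klk6*, a secreted serine protease, and cells rich in *Ptgds*, which makes prostaglandin D2.

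Several libraries differed from the rest before any comparison of conditions. The wild-type oil library 10 and the *Esr1* cKO tamoxifen library 11 lay at 53.8 and 51.4 on the first principal component of the mature oligodendrocytes (45.1% of the variance over 6075 genes), and the other 14 libraries lay between -20.2 and -1.04. Of 1205 genes with at least 100 CPM (UMIs of a gene per 1000000 UMIs of the mature oligodendrocytes) in all of the other 14 libraries, 13 had no UMI in either of the pair. One of them was *Myo3a*, at 2512 to 5446 CPM elsewhere. Of 6899 genes with a mean of 20 CPM or more, 1109 (16.1%) did not overlap between the pair and the other 14. The *Esr1* cKO oil library 12, labelled female, had 3 UMIs of *Xist*, the RNA of the inactive X chromosome, in its kept cells, against 404 to 1826 in each other library, and 88 UMIs of the Y-linked *Ddx3y* against 4 to 31. Libraries 13 to 16 shared 303 to 359 kept barcodes per pair, against 0 to 42 between the libraries of different sets. In these 4 libraries 377 of the 420 shared pairs that held a mature oligodendrocyte held one on both sides (89.8%). Whether such barcodes were the same cells was not tested. 509 mature oligodendrocytes had a barcode that another library also listed, and 8242 did not. The comparisons below were repeated without library 12, without libraries 10 and 11, without all 3, and without the shared barcodes.

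By their levels outside the rule, the cells were myelin-making oligodendrocytes. *Mbp*, which encodes myelin basic protein, stood at 7391 CPM, against 3724 CPM in 423 committed precursors, 568 in 2508 oligodendrocyte precursors, 694 in 8358 astrocytes, 442 in 8258 neurons and 777 in 4296 microglia. Each mRNA is tagged once at its 3′ end in Drop-seq, so these levels do not scale with transcript length. An *Mbp* UMI was present in 97.3% of the mature oligodendrocytes, and 52.4% of neurons (median 1750 UMIs per cell) also had one, a level to which free RNA in the droplets can add. *Cnp*, an enzyme of uncompacted myelin, stood at 2997 CPM (1844 in committed precursors) with a UMI in 83.4% of the cells against 4.49% of neurons, and *Ugt8a*, which makes galactocerebroside, at 940 CPM (457). No test was made of these class differences, since the classes were chosen by oligodendrocyte and other markers of the same cells.

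Some genes were far higher in the mature cells than in those of the committed stage. *Aspa*, which splits N-acetylaspartate into acetate and aspartate, was at 793 CPM against 17.5 in committed precursors. *Hapln2*, a link protein of the matrix at nodes of Ranvier, was at 320 CPM and had no UMI in committed precursors. *Car2*, carbonic anhydrase II, was at 6380 CPM against 52.4, and *Trf*, the iron carrier transferrin, at 2291 against 64.1. Iron storage was prominent too: *Fth1*, the ferritin heavy chain, reached 12871 CPM, against 734 in committed precursors and 4081 in microglia. *Ptgds* was at 9682 CPM with a UMI in 80.9% of the cells, against 702 CPM in committed precursors and 301 in astrocytes. *Scd2*, a fatty acid desaturase, was at 4067 CPM, *Apod*, a lipid carrier, at 3332 and *Enpp2*, the autotaxin that makes lysophosphatidic acid, at 3189.

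The rest of the most abundant transcripts mixed oligodendrocyte genes with genes of every cell. The mitochondrial ribosomal RNA *mt-Rnr2* (39672 CPM) and the nuclear RNA *Malat1* (17229 CPM) were high in all classes, with 28824 and 18192 CPM in committed precursors. Of the mitochondrial mRNAs, *mt-Cytb*, a subunit of complex III, was at 4604 CPM, and *mt-Nd4* and *mt-Nd1*, subunits of complex I, at 2596 and 2396 CPM. *Qdpr*, which regenerates tetrahydrobiopterin, was at 2695 CPM against 194 in committed precursors, and the septins *Sept4* and *Sept7*, scaffolds of the membrane skeleton, were at 2658 and 3817 CPM against 377 and 2294. *App*, the amyloid precursor protein, was at 3371 CPM, *Syt11*, a vesicle trafficking protein, at 2585, the membrane protein *Gpm6b* at 2344, and *Actb* at 3213, lower than in microglia (7476). Among the transcription factors of the mature program, *Myrf*, which switches on myelin genes, was at 187 CPM against 10.2 in oligodendrocyte precursors, *St18* at 371 against 18.3, and *Nkx6-2* at 183 against 5.47. *Slc16a1*, the monocarboxylate transporter that passes lactate to axons, was at 93.9 CPM, close to the 92.8 CPM of astrocytes.

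Genes of earlier stages were low. *Vcan* and *Cspg5*, proteoglycans of precursors, stood at 13.6 and 22.1 CPM, against 1070 and 1484 in oligodendrocyte precursors. *Bcas1*, known from newly forming oligodendrocytes, was at 382 CPM against 2145 in committed precursors, and *Tcf7l2*, a transcription factor of the differentiating stage, at 70.2 against 641. The lineage factors *Olig1* and *Sox10* remained, at 653 and 211 CPM, while astrocytes had 107 and 3.20. *Apoe*, a lipid carrier made mainly by astrocytes and microglia, was at 1986 CPM in the mature oligodendrocytes and 11601 in astrocytes.

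**Figure D1:**
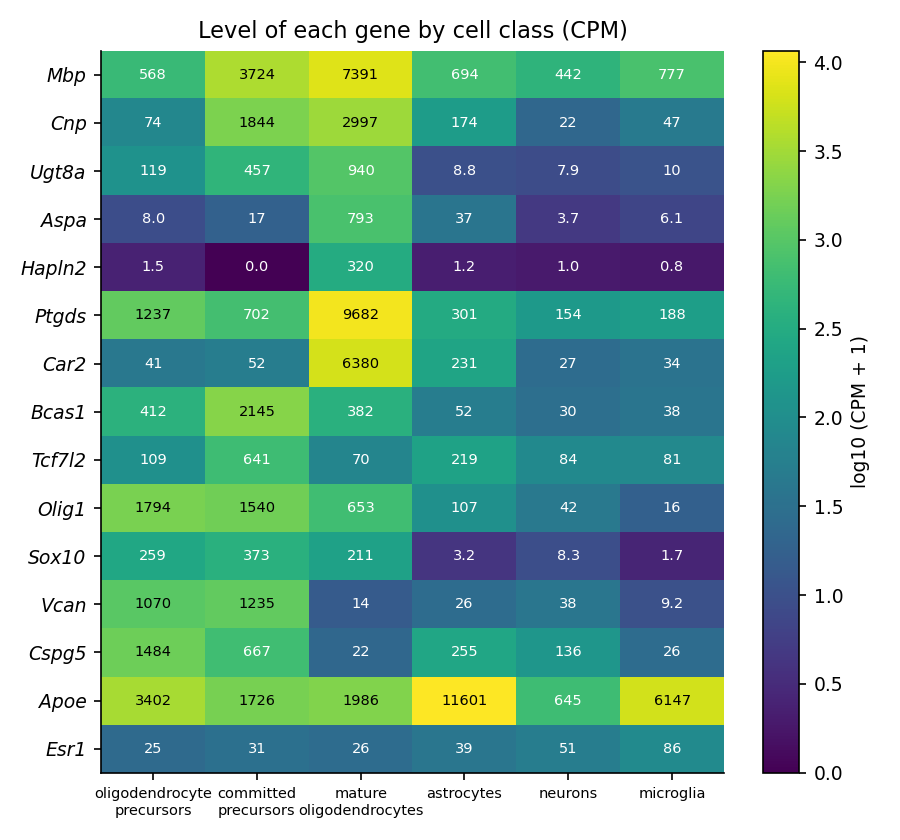
Level of 15 genes outside the rule in 6 cell classes, each cell of the grid giving the CPM and its colour log10 of CPM plus 1. *Mbp* runs from 568 CPM in oligodendrocyte precursors through 3724 in committed precursors to 7391 in mature oligodendrocytes.

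The 7 markers of the rule ranged from 4461 CPM for *Mag*, an adhesion protein of the inner myelin membrane, through *Mal* (4357), *Ermn* (4005), *Cldn11* (3662), *Mobp* (2775) and *Mog* (1778), down to 1350 CPM for *Opalin*. Cells just inside the threshold were oligodendrocytes in their other transcripts. The 571 cells with exactly 3 markers had 2328 CPM of *Cnp* and a median of 411 UMIs, the 2497 cells with all 7 had 3305 CPM and 1129 UMIs, and the 593 cells just outside, with 2 markers, had 784 CPM. At the other edge, 1343 mature oligodendrocytes carried 1 transcript of the exclusion list (*Cnp* 2894 CPM), and 268 cells with 2 of them lay outside (1969 CPM, median 1416 UMIs). The 69 mature oligodendrocytes with 1 *Gpr17* UMI had 307 CPM of *Aspa*, and the 54 cells left out for 2 or more had 64.2 CPM of *Aspa* and none of *Hapln2*.

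Transcripts of other cells were present at low levels in every library, summed here over lists of marker genes. The neuron list summed to 270 to 803 CPM, with the noncoding RNA *Meg3* its most abundant gene (140 CPM). The microglia list gave 25.8 to 95.5 CPM, and the endothelial and mural list 195 to 483 CPM, led by *Bsg*. The astrocyte list summed to 3138 to 5253 CPM, led by *Apoe*. The globin and pituitary list ranged from 97.0 to 4390 CPM (median 852). No doublet caller was run, and the exclusion genes were the sole guard against mixed droplets.

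*Klk6* and *Il33* were found in largely separate subsets of these cells, and the sequence around the start sites of 4 genes that separate them is shown next. *Klk6* lies on chromosome 7 (43824499 to 43832030, plus strand), *S100b* on chromosome 10 (76253853 to 76261159, plus strand), *Il33* on chromosome 19 (29925114 to 29960718, plus strand) and *Ptgds* on chromosome 2 (25466709 to 25470046, minus strand), all in GRCm38, the build also called mm10. Each line gives 300 bases from RefSeq on GRCm38.p6, 250 before to 50 after the first start listed for the gene, read 5′ to 3′ on the strand of the gene. Capitals mark the letters ACAAAG, the core bound by SOX factors, or CTGGNAC, a core of the oligodendrocyte factor MYRF, on either strand. The windows are chr7:43824294-43824593 for *Klk6*, chr10:76253586-76253885 for *S100b*, chr19:29924863-29925162 for *Il33* and chr2:25469700-25469999 for *Ptgds*.
Klk6: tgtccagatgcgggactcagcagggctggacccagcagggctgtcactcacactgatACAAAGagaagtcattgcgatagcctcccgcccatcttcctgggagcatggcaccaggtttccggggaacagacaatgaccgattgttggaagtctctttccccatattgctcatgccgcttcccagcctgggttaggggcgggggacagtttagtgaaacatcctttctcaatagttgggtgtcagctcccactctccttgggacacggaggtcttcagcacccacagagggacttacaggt
S100b: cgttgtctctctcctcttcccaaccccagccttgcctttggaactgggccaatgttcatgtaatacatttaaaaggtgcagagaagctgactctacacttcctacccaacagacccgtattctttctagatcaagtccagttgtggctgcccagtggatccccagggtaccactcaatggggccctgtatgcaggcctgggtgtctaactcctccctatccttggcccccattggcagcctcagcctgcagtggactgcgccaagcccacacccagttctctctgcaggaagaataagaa
Il33: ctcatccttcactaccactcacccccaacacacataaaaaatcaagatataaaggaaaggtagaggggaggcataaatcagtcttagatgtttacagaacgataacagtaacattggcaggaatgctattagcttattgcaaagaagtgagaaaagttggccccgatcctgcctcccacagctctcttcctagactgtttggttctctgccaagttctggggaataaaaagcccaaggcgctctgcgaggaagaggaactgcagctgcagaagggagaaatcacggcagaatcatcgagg
Ptgds: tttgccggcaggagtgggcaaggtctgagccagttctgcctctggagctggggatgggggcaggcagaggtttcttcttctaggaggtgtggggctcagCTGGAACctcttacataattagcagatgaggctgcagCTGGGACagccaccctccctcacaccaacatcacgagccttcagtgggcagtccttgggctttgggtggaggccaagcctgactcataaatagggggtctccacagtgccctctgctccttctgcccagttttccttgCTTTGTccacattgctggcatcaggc
*Klk6* held ACAAAG, *Ptgds* held both motifs, and *S100b* and *Il33* held neither in these windows. The window of a second start listed for *Klk6*, chr7:43825200-43825499, held CTGGNAC and no ACAAAG, and that of a second start of *Il33* held neither. ACAAAG was present in 18.7% and CTGGNAC in 19.2% of the promoters of 27025 genes, the motifs can share the letters AC where they adjoin, and a match is a description of the sequence only. Of the 7 membership markers 3 held ACAAAG and 3 held CTGGNAC.

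A *Klk6* UMI was found in 578 mature oligodendrocytes (6.60%), with 12 to 69 such cells and 3.88% to 9.01% of the mature oligodendrocytes per library. The share was 0.12% in neurons, 0.08% in astrocytes and 0.05% in microglia (medians of 1750, 600 and 693 UMIs). The part of free RNA in the *Klk6* UMIs was not tested. An *Il33* UMI was found in 3636 cells (41.5%, 24.1% to 50.3% per library), against 10.5% of astrocytes, 2.62% of neurons and 2.09% of microglia. *Il33* encodes an alarmin, a nuclear cytokine released from damaged cells. The pair rarely coincided: 33 of the 578 *Klk6*-positive cells had *Il33* (5.71%), against 3603 of the 8173 others (44.1%). Per library the share with *Il33* was 0% to 8.70% (median 6.39%) among *Klk6*-positive cells and 25.6% to 53.8% (median 44.8%) among the others, with no overlap. In cells thinned to 500 UMIs, 9 of 339 *Klk6*-positive cells (2.65%) and 2133 of 6417 others (33.2%) had *Il33*. Thinning left out the 1995 mature oligodendrocytes with fewer UMIs.

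**Figure D2:**
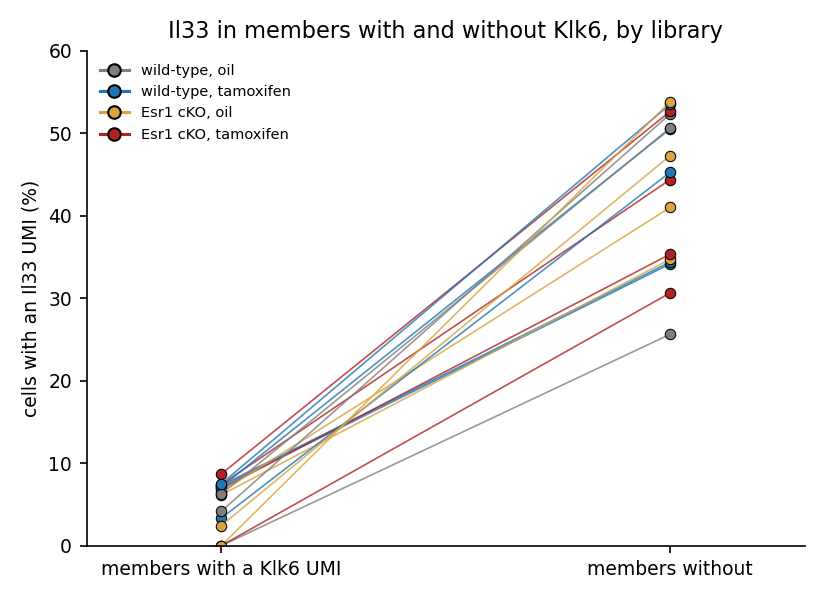
Share of cells with an *Il33* UMI (%) among mature oligodendrocytes with and without a *Klk6* UMI, 1 line for each of the 16 libraries, coloured by group. The shares with *Klk6* lie at 0% to 8.70% and those without at 25.6% to 53.8%.

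The *Klk6*-positive cells were higher in *S100b*, *Hopx* and *Cdkn1c* and lower in *Il33* and *Ptgds*, in all 16 libraries. For this comparison the UMIs of the positive and of the negative cells were summed in each library, and edgeR's quasi-likelihood test with library as a term was run over all 2646 genes past the filter. *Klk6* was not tested, since it made the split, and the rule genes were not counted as findings. The test called 762 genes (28.8% of those tested) at a Benjamini-Hochberg adjusted p under 0.05, of which 370 were higher (14%) and 392 lower (14.8%) in *Klk6*-positive cells. Among the called genes with a mean of 20 CPM or more, the positive and negative sums of the 16 libraries did not overlap in 27 higher and 21 lower genes.

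*S100b*, a calcium-binding protein, was at 2025 to 2985 CPM (median 2331) in *Klk6*-positive cells and at 142 to 433 CPM (median 221) in the others, a log2 fold change of 3.40 ± 0.08 (SE, edgeR adjusted p = 1.5e-70). *Hopx*, a homeodomain protein that does not bind DNA, was at 170.4 to 597 CPM (median 335) against 7.52 to 45.4 (median 15.1), a log2 fold change of 4.30 ± 0.17 (edgeR adjusted p = 2.3e-46). *Cdkn1c*, the cell cycle inhibitor p57, was at 141 to 549.7 CPM (median 243) against 7.78 to 33.6 (median 19.1), a log2 fold change of 3.83 ± 0.16. In none of these genes did any positive sum reach the range of the negative sums.

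*Mgst3*, a microsomal glutathione transferase, rose by 3.21 ± 0.17 on the log2 scale, *Uchl1*, a ubiquitin hydrolase otherwise known from neurons, by 2.6 ± 0.19, and the calcium-binding *S100a6* by 2.12 ± 0.16. *Cd59a*, which blocks the membrane attack complex of complement, rose by 2.06 ± 0.09, from a median of 152 CPM to 683. *Enpp6*, a choline phosphodiesterase known from newly formed oligodendrocytes, rose by 1.86 ± 0.11, from 124 to 444 CPM. *Rasgrp3* (1.85), the phospholipid-binding *Anxa5* (1.81), the protease inhibitor *Serpina3n* (1.63) and the lactate dehydrogenase subunit *Ldhb* (1.61) completed the 12. These 12 had the largest log2 fold changes among the called higher genes without overlap and with a mean of 20 CPM or more.

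On the lower side, *Il33* was at 0 to 131 CPM (median 47.4) in *Klk6*-positive cells and at 454 to 1176 CPM (median 936) in the others, a log2 fold change of -4.11 ± 0.14 (edgeR adjusted p = 1.5e-53). *Ptgds* was at 0 to 4851 CPM (median 418) against 7047 to 15842 (median 10539), a log2 fold change of -4.03 ± 0.14 (edgeR adjusted p = 3.6e-51). Both genes were lower in 16 of 16 libraries, without overlap. The tetraspanins *Cd9* and *Tspan2*, membrane organisers of the myelinating cell, had log2 fold changes of -1.94 and -1.85. The actin regulator *Phactr3* had -2.23, the centriole protein *Ccp110* -2.17, *Ttyh1* -1.93, the secreted *Lgi3* -1.61, *Clmn* -1.43, *Serinc5* -1.40 and the scaffold *Erbb2ip* -1.34.

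**Figure D3:**
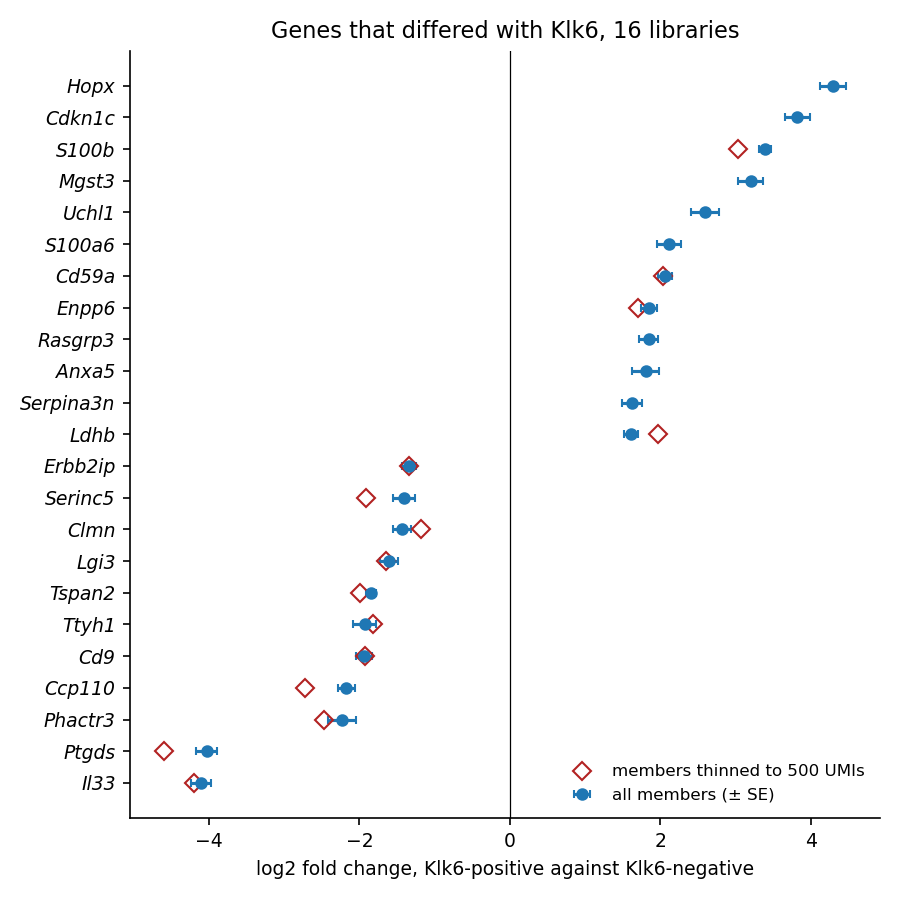
Log2 fold change of *Klk6*-positive against *Klk6*-negative mature oligodendrocytes for 12 higher and 11 lower genes from those with the largest changes that were called without overlap (blue, ± SE, 16 libraries), with the value after thinning each cell to 500 UMIs where the gene was tested (red diamonds, 14 libraries). *Hopx* stands highest at 4.30 and *Il33* lowest at -4.11.

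Over all tested genes 14% were higher and 14.8% lower. Of 18 tested genes for fatty acid, sphingolipid and myelin lipid synthesis, 8 were higher and 0 lower in *Klk6*-positive cells (median log2 fold change 0.43, against -0.01 over all genes tested), among them *Far1* (1.16), which makes fatty alcohols for ether lipids, the elongases *Elovl5* (0.93) and *Elovl1* (0.79), *Gal3st1* (0.92), which makes sulfatide, *Fa2h* (0.69) and *Ugt8a* (0.67). Of 6 cholesterol synthesis genes tested, 3 were higher and 0 lower (median 0.40): *Hmgcs1* (1.08), *Sqle* (0.73) and *Sc5d* (0.42). Myelin proteins outside the rule went both ways, with 11 of 34 higher and 13 lower (median -0.03). *Hapln2* (1.28), the actin-severing *Gsn* (1.23) and the gap junction protein *Gjb1* (1.18) were higher, while *Qdpr* (-1.24), *Nfasc* (-1.09) and *Sept4* (-0.80) were lower with the tetraspanins.

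Beside the same shares of all tested genes, 0 of 10 oligodendrocyte transcription factors were higher and 5 lower (median -0.30), with *Olig2* at -1.29, *Olig1* at -0.64 and *Sox10* at -0.46. All 10 tested transcripts of the mitochondrial genome were lower (median -0.45), as were 23 of 77 ribosomal protein genes with 0 higher (median -0.19). Of 18 genes of late mature states, 8 were higher, led by *Apod* (1.57), *Sepp1* (1.55) and *Anln* (1.51), and 7 lower. Of 8 tested astrocyte transcripts, 7 were lower and 0 higher (median -0.66), *Apoe* among them at -1.91. Whether astrocyte RNA in the droplets had a part in this was not tested. Of 6 genes of the interferon and disease-associated list, 4 were higher, with *C4b*, a complement component, at 0.76 beside *Serpina3n*, and 2 lower.

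The *Klk6*-positive cells were deeper, with a median of 1429 UMIs against 735. The thinned fit held 14 libraries, since libraries 1 and 6 had fewer than 10 *Klk6*-positive cells left. After thinning to 500 UMIs the test called 221 of 1259 genes (17.6%, with 85 or 6.75% higher and 136 or 10.8% lower), 210 of the 493 main calls that could be tested were called again with the same direction, and *S100b* (3.03), *Enpp6* (1.71), *Ldhb* (1.97), *Il33* (-4.19) and *Ptgds* (-4.60) kept theirs. Of the 12 named higher genes 8 were not tested in thinned cells, *Hopx*, *Cdkn1c*, *Mgst3*, *Uchl1*, *S100a6*, *Rasgrp3*, *Anxa5* and *Serpina3n*, so that this check of depth was not made for them. In thinned cells the calls were 5 higher of 13 in the lipid list, 9 lower of 10 in the mitochondrial list, 5 lower of 69 in the ribosomal list, 4 lower of 6 in the astrocyte list, 1 lower of 8 in the transcription factor list, and 1 higher and 2 lower of 5 in the interferon list. The shares of the transcription factor and ribosomal lists were thus near or below that of all thinned genes. Without the filter on low counts all log2 fold changes shifted by a median of -0.34.

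The split by *Il33* gave the mirror of part of this. The test called 440 of 4624 genes (9.52%), with 220 higher (4.76%) and 220 lower (4.76%) in *Il33*-positive cells, and it used the same cells as the first split, so it is no independent evidence. Among the called genes with a mean of 20 CPM or more, the groups did not overlap for 5, all lower. *Klk6* was at 0 to 54.4 CPM (median 11.9) in *Il33*-positive cells and at 165 to 507 CPM (median 317) in the others, a log2 fold change of -4.25 ± 0.15. *S100b* was at 50.9 to 347 CPM (median 126) against 480.1 to 1044 (median 700.0), a log2 fold change of -2.36 ± 0.09. *Hopx* (-2.98 ± 0.21), *Enpp6* (-1.80 ± 0.10) and *Pla2g4a* (-1.19 ± 0.16), a phospholipase A2, were the others.

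*Ptgds* was higher with *Il33* by 0.82 ± 0.03 on the log2 scale, *Apoe* by 0.65, *Sgk1*, a kinase induced by glucocorticoids, by 0.57 and *Qdpr* by 0.51. Over all tested genes 4.76% were higher and 4.76% lower with *Il33*. Of 12 genes of newly formed and myelin-forming cells, 9 were lower and 1 higher (median -0.67, against 0.01 over all genes tested), among them *Tcf7l2* at -0.79 and the kinase *Fyn* at -0.73. Of 15 cholesterol synthesis genes, 4 were lower and 0 higher (median -0.27), with *Cyp51* at -0.48 and *Hmgcs1* at -0.46. Of 11 mitochondrial transcripts 10 were higher and 0 lower (median 0.21), and of 79 ribosomal protein genes 14 were higher and 0 lower. The *Il33*-positive cells were deeper, with a median of 845 UMIs against 706, and these list counts are from cells before thinning. After thinning, 102 of 1783 genes were called (5.72%, with 49 or 2.75% higher and 53 or 2.97% lower), and 95 of the 306 main calls tested again were called with the same direction. In thinned cells the calls were 2 lower of 5 in the newly formed list (median -0.20) and 1 lower of 2 in the cholesterol list. They were 5 higher of 10 in the mitochondrial list and 2 higher of 75 in the ribosomal list. The share of the ribosomal list was thus near that of all thinned genes.

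The share of *Klk6*-positive cells among mature oligodendrocytes was 6.49% ± 0.878 (SD, n = 3) in wild-type oil, 6.07% ± 1.85 (n = 5) in wild-type tamoxifen, 7.19% ± 1.03 (n = 4) in *Esr1* cKO oil and 6.35% ± 2.28 (n = 4) in *Esr1* cKO tamoxifen mice. The share of *Il33*-positive cells was 40.3% ± 14.1, 41.4% ± 8.75, 41.4% ± 7.76 and 38.5% ± 8.74 in the same order. The groups overlapped for both genes, and these shares were not tested.

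The comparisons of conditions turn to the mice. *Esr1* itself, on chromosome 10 (4611593 to 5005614, plus strand), was close to the limit of detection in mature oligodendrocytes, with 212 UMIs in all and a UMI in 2.37% of the cells (25.9 CPM, against 51.2 CPM in neurons with a UMI in 8.63% of cells). It stood at 87.8, 26.9 and 6.79 CPM in the wild-type oil mice, at 34.7, 30.6, 41.1, 37.1 and 34.8 in the wild-type tamoxifen mice, at 16.8, 24.4, 19.1 and 27.1 in the *Esr1* cKO oil mice, and at 17.4, 32.9, 0 and 23.2 in the *Esr1* cKO tamoxifen mice. The genotypes overlapped, and the 0 was in library 11 and the 6.79 in library 10. The libraries count 3′ ends, so the level does not by itself check the deletion. *Esr2*, *Pgr* and *Gper1* had 35, 44 and 6 UMIs in all mature oligodendrocytes, too few to compare.

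Mature oligodendrocytes made up a larger share of the kept cells in *Esr1* cKO mice, by a margin that did not pass adjustment. The shares were 12.1%, 13.1% and 12.7% in wild-type oil mice (mean 12.7% ± 0.487), and 18.0%, 15.6%, 12.4%, 12.1% and 15.3% in wild-type tamoxifen mice (14.7% ± 2.47). They were 24.7%, 22.9%, 14.3% and 19.9% in *Esr1* cKO oil mice (20.5% ± 4.56), and 14.3%, 16.4%, 18.6% and 13.6% in *Esr1* cKO tamoxifen mice (15.7% ± 2.25). The wild-type oil library 1, which had the fewest cells, had an exact (Clopper-Pearson) 95% interval of 10.6% to 13.8%, wider than the spread of the 3 wild-type oil mice. All 4 *Esr1* cKO oil mice lay above all 3 wild-type oil mice, and the groups given tamoxifen overlapped. The genotypes differed by 4.41 percentage points averaged within treatment (exact permutation test within treatment, two-sided, p = 0.0365, adjusted over 3 comparisons 0.11). Tamoxifen mice had 2.03 points more than oil mice in the wild-type (exact permutation p = 0.321, adjusted 0.321) and 4.72 points fewer in the *Esr1* cKO (difference -4.72, exact permutation p = 0.114, adjusted 0.171).

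Library 12, with its low *Xist*, was the lowest of the *Esr1* cKO oil mice. Without it the genotype difference was 5.44 points (exact permutation p = 0.0258, adjusted 0.0429), and the tamoxifen difference in the *Esr1* cKO was -6.77 points (exact permutation p = 0.0286, adjusted 0.0429). No other alternative passed after adjustment. Without libraries 10 and 11 the genotype difference was 3.95 points (exact permutation p = 0.125), and without libraries 10 to 12 it was 4.97 points (exact permutation p = 0.0696), with -7.73 points for tamoxifen in the *Esr1* cKO (exact permutation p = 0.1, the smallest 3 against 3 mice allow). Among cells with more than 500 genes the genotype difference was 2.76 points (exact permutation p = 0.107), and among cells with a mitochondrial share under 5% it was 2.47 points (exact permutation p = 0.134).

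The mice were handled over 4 days, and which mouse belonged to which day was not given in the sources used here. Grouped into 4 sets of 4 libraries by how often they listed the same barcodes, whether kept as cells or not, the mean share was higher in the *Esr1* cKO in each set, at 15.3% against 13.9%, 19.5% against 12.6%, 20.7% against 15.6% and 16.8% against 13.7%, the last set, libraries 13 to 16, having no wild-type oil mouse. The wild-type oil library 5 was placed in the third set, with which it shared 81 to 167 barcodes per library, but it shared 67 to 191 with libraries 13 to 16. Placed with those it left means of 20.7% against 18.0% and of 16.8% against 13.5% in the 2 sets concerned. With the sets as a block, a test chosen after seeing the data, the genotype difference was 3.86 points (exact permutation within set and treatment, two-sided, p = 0.0417, adjusted over 3 comparisons 0.125), the *Esr1* cKO being higher in 6 of 7 comparisons within a set, and 3.44 points with library 5 moved (exact permutation p = 0.0417, adjusted 0.125). For tamoxifen the exact permutation p within sets was 0.5 in the wild-type and 0.25 in the *Esr1* cKO, where the smallest the design allows are 0.25 and 0.125. These shares are of cells that survived dissociation and were captured, and they cannot be told apart from differences in the yield of other cells.

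**Figure D4:**
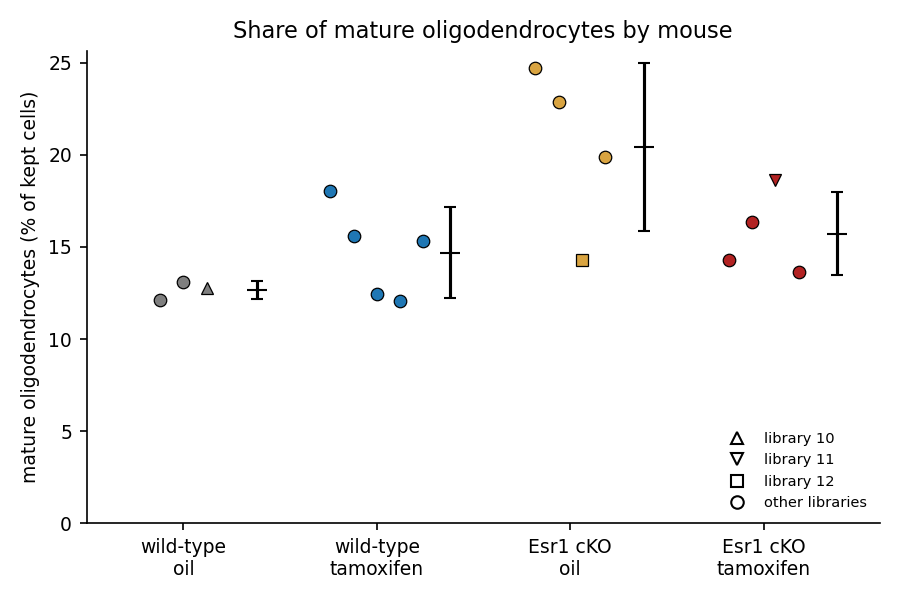
Share of mature oligodendrocytes among kept cells (%) in each mouse by group, with mean ± SD beside the points. Library 12, the square, is at 14.3% where the other *Esr1* cKO oil mice are at 19.9% to 24.7%.

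No gene of the mature oligodendrocytes changed with tamoxifen in wild-type mice after adjustment. UMIs were summed over the mature oligodendrocytes of each mouse, and edgeR's quasi-likelihood test over the 4 groups called 0 of 8601 genes at a Benjamini-Hochberg adjusted p under 0.05 (0.0%). DESeq2 also called 0, and 286 genes (3.33%) had an unadjusted p under 0.05. Among 1804 genes at 100 CPM or more, the median standard error of the log2 fold change was 0.19 and its median size 0.12, so most of these changes were smaller than their error.

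The genes with the smallest p-values are given as values. Whether their groups overlapped is description only, here and in the comparisons below. The share of all tested genes whose groups did not overlap is not given here. *Ppm1k*, a mitochondrial phosphatase that switches on the breakdown of branched-chain amino acids, was at 51.6, 67.2 and 63.4 CPM in wild-type oil mice and at 36.9, 23.5, 32.0, 26.5 and 19.0 CPM in wild-type tamoxifen mice. The groups did not overlap, and the log2 fold change was -1.16 ± 0.29 (edgeR adjusted p = 1.0). *Fbxo33*, a substrate receptor of a ubiquitin ligase, had -1.06 ± 0.30 without overlap, and *Dbnl*, *Efna1* and *Crkl* had 0.98, 1.48 and 2.24 with overlap.

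In *Esr1* cKO mice given tamoxifen the test called 0 of 8601 genes (0.0%), DESeq2 called 0, and 312 genes (3.63%) had an unadjusted p under 0.05. Globin transcripts stood higher with tamoxifen, short of the threshold. *Hbb-bt*, a beta globin of red blood cells, was at 15.2, 14.6, 8.82 and 52.6 CPM in the oil mice and at 229, 345, 127 and 82.4 CPM in the tamoxifen mice. The groups did not overlap, and the log2 fold change was 2.99 ± 0.69 (edgeR adjusted p = 0.884). All 4 globin genes tested had an unadjusted p under 0.05 (median log2 fold change 3.07). Without libraries 10 and 11, a setting chosen with earlier results of these data known, edgeR called *Hbb-bt* (log2 fold change 3.12, adjusted p = 0.00377), *Hba-a1* (3.34), *Hba-a2* (3.27) and *Hbb-bs* (3.16). *Hbb-bt* passed in 4 of 32 alternatives and missed without libraries 10 to 12 (edgeR adjusted p = 0.0532). Globins are transcripts of red cells, and in the other kept cells *Hbb-bs* was higher than in the mature oligodendrocytes, at 657 to 1530.2 CPM in *Esr1* cKO oil and 1109 to 4049 CPM in *Esr1* cKO tamoxifen mice, against 30.9 to 296 and 332 to 1870.3 CPM in the mature oligodendrocytes. The part of free RNA from blood in this result was not tested.

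*Ube2r2*, a ubiquitin-conjugating enzyme, was at 85.9, 87.9, 88.2 and 86.0 CPM in *Esr1* cKO oil mice and at 69.4, 41.1, 42.3 and 57.0 CPM in *Esr1* cKO tamoxifen mice, with a log2 fold change of -0.77 ± 0.18 (edgeR adjusted p = 0.884). *Dopey2*, a protein of Golgi and endosome traffic, was at 48.8, 65.1, 52.9 and 55.8 CPM against 24.3, 16.4, 7.93 and 42.3, with a log2 fold change of -1.36 ± 0.33. *Vps8*, a subunit of an endosomal tethering complex, had -1.16 ± 0.28, and *4930448H16Rik*, an unnamed locus, -3.42 ± 0.77. In each of these 4 genes the groups did not overlap, and in each of them the tamoxifen library 11 was the lowest or the second lowest of its group.

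The difference between the genotypes in the response to tamoxifen was tested as an interaction, which called 0 of 8601 genes (0.0%), with 0 by DESeq2 and 426 (4.95%) at an unadjusted p under 0.05. *Dopey2* had an interaction of -2.03 ± 0.47 on the log2 scale (edgeR adjusted p = 0.906), being at 25.8, 36.5 and 27.2 CPM in wild-type oil mice and at 56.4, 51.8, 38.0, 53.0 and 45.8 CPM in wild-type tamoxifen mice. It was thus higher in all wild-type tamoxifen mice than in the oil mice and lower in all *Esr1* cKO tamoxifen mice than in the oil mice. Without library 15 its interaction was -2.66 and passed (edgeR adjusted p = 0.046), as in 2 of 31 alternatives in all. *4930448H16Rik* (-5.52), the kinases *Mark2* (-1.58) and *Pdpk1* (-1.28), and *C630043F03Rik* (-1.70) had the other smallest p-values. Libraries 10 and 11, which stood apart above, are in the wild-type oil and *Esr1* cKO tamoxifen groups. In the other kept cells *Dopey2* was lowest in them, at 11.9 and 8.75 CPM, against 20.9 to 35.1 CPM elsewhere. *4930448H16Rik* was at 0 CPM in both libraries, in the mature oligodendrocytes and in the other kept cells. Without both libraries the interaction called 0 of 9047 genes.

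Between the genotypes, edgeR called 0 of 8601 genes (0.0%) in oil mice, in tamoxifen mice and over the mean of both treatments, with 480 (5.58%), 322 (3.74%) and 387 (4.5%) at an unadjusted p under 0.05. DESeq2 called 0, 0 and 1. That gene was *Adi1*, acireductone dioxygenase of the methionine salvage pathway, on chromosome 12 (28675231 to 28682175, plus strand). *Adi1* was at 341, 384 and 355 CPM in wild-type oil mice and at 345, 362, 389.5, 343 and 433 CPM in wild-type tamoxifen mice. It was at 212, 215, 319 and 194 CPM in *Esr1* cKO oil mice and at 243, 275, 263 and 190.1 CPM in *Esr1* cKO tamoxifen mice. All 8 *Esr1* cKO mice lay below all 8 wild-type mice, library 12 being the highest of them, and the log2 fold change was -0.58 ± 0.12 (edgeR adjusted p = 0.711), or -0.60 by DESeq2 (adjusted p = 0.0189). Without libraries 10, 11 and 12 edgeR gave -0.70 (adjusted p = 0.0272), but leaving out library 12 alone gave an edgeR adjusted p of 0.0734, libraries 10 and 11 alone 0.345, and all 3 with the shared barcodes 0.17. *Adi1* passed in 2 of 31 alternatives (adjusted p 0.0189 to 1.0 by edgeR or DESeq2). In the other kept cells *Adi1* was at 35.8 to 54.9 CPM in wild-type and 20.5 to 41.4 CPM in *Esr1* cKO mice, with overlap.

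**Figure D5:**
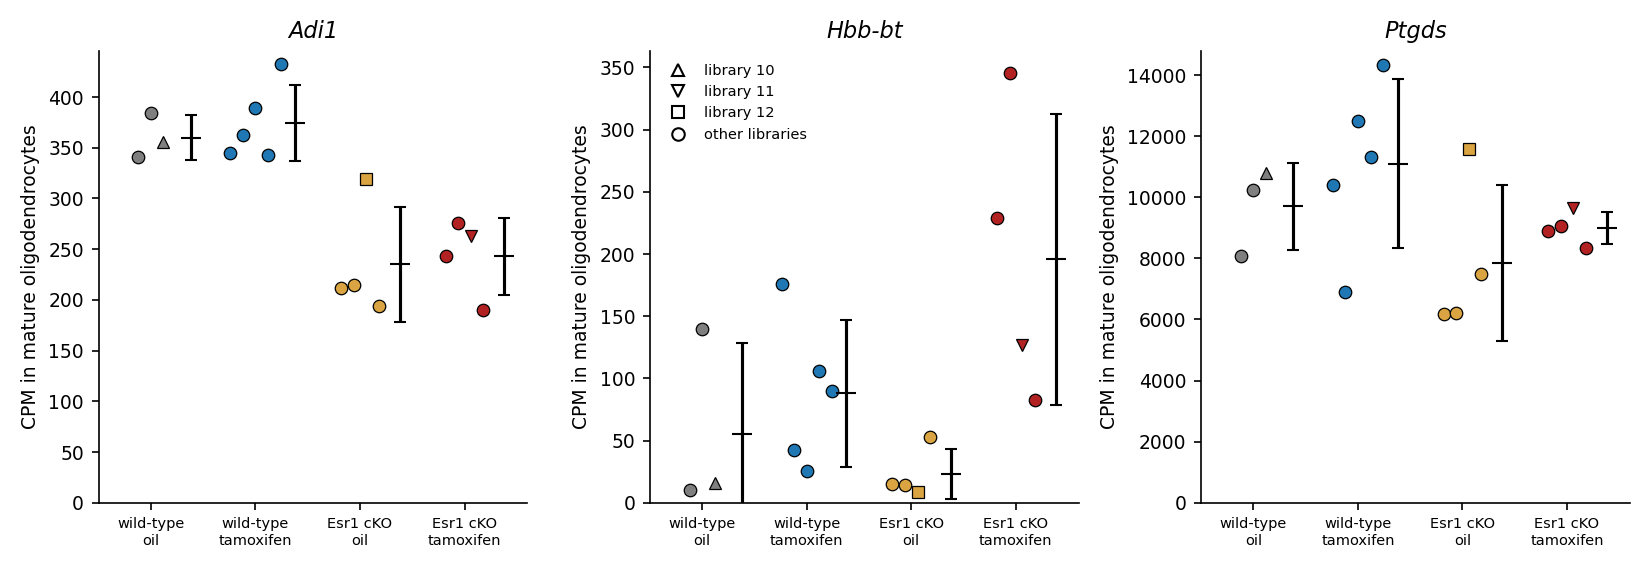
Level (CPM) of *Adi1*, *Hbb-bt* and *Ptgds* in the mature oligodendrocytes of each mouse by group, with mean ± SD beside the points (an error bar that would pass below 0 is drawn to 0). *Adi1* lies at 341 to 433 CPM in wild-type and 190.1 to 319 CPM in *Esr1* cKO mice, without overlap.

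In oil mice the smallest p was that of *Gm10704*, a predicted gene, at 77.5, 53.7 and 45.3 CPM in the wild-type and 11.8, 30.9, 19.1 and 17.5 CPM in the *Esr1* cKO (log2 fold change -1.43 ± 0.29, edgeR adjusted p = 0.745). *Cdc42bpa*, a kinase that acts on the actin and myosin cytoskeleton, was at 309.8, 338 and 258 CPM against 539, 581, 356 and 532 CPM, with a log2 fold change of 0.81 ± 0.19, and *Kctd3* was at 129, 123 and 129 CPM against 222, 218, 185 and 185 CPM, with 0.74 ± 0.17. Neither gene overlapped between these groups, and in *Cdc42bpa* library 12 was the lowest of the *Esr1* cKO oil mice. *Pde4dip*, a protein of the Golgi and centrosome, had 0.71 ± 0.18 and the predicted gene *Gm8444* -1.38 ± 0.35, also without overlap.

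In tamoxifen mice the smallest p-values were those of *Adi1* (log2 fold change -0.60 ± 0.16) and the unnamed locus *2810410L24Rik* (-1.13 ± 0.29), both without overlap, followed by the splicing factor kinase *Srpk1* (0.97 ± 0.25), *Dopey2* (-1.12 ± 0.32) and the nuclear protein *Tox* (-1.42 ± 0.41), with overlap. *2810410L24Rik* was at 65.1, 87.1, 68.5, 63.6 and 85.3 CPM in wild-type and at 20.8, 45.2, 19.8 and 50.7 CPM in *Esr1* cKO tamoxifen mice. Over both treatments *Cdc42bpa* (0.53 ± 0.13) and the mitochondrial ribosomal protein *Mrps25* (0.65 ± 0.16) overlapped between the genotypes, and *Gm4419* (-1.09 ± 0.27) did not. *Hint2*, a mitochondrial nucleotide hydrolase, separated the genotypes over both treatments, at 39.1 to 58.8 CPM in wild-type and 20.6 to 35.4 CPM in *Esr1* cKO mice (log2 fold change -0.69 ± 0.17, not called). Without libraries 10 and 11 edgeR called *Nrp1*, a semaphorin and VEGF coreceptor, in oil mice (-2.75, adjusted p = 0.0375). It passed in 2 of 29 alternatives. In oil mice *Nrp1* was at 20.7, 65.3 and 11.3 CPM in the wild-type and 6.73, 3.25, 5.88 and 11.2 CPM in the *Esr1* cKO. The 11.3 CPM was in library 10, so the call rested on 2 wild-type oil mice, at 20.7 and 65.3 CPM.

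No list of genes had a called member in any of these 6 comparisons. Over the 34 tested myelin genes outside the rule, the median log2 fold change was 0.01 with tamoxifen in wild-type mice, 0.07 in *Esr1* cKO mice, and -0.07 and 0.01 between the genotypes in oil and tamoxifen mice, beside 0.03, -0.02, 0.04 and -0.02 over all genes tested. *Mbp* was at 6601 to 8094 CPM in wild-type oil, 6527 to 8543 in wild-type tamoxifen, 6933 to 7785 in *Esr1* cKO oil and 6889 to 8116 in *Esr1* cKO tamoxifen mice, overlapping throughout. *Ptgds* was at 8075, 10232 and 10794 CPM in wild-type oil mice, at 10412, 6896, 12489, 11324 and 14345 in wild-type tamoxifen mice, at 6167, 6206, 11581 and 7488 in *Esr1* cKO oil mice and at 8909, 9064, 9642 and 8352 in *Esr1* cKO tamoxifen mice. All these groups overlapped with the others. Of 19 tested clock and glucocorticoid-responsive genes, a list singled out after its values were seen, 6 had a higher level in the *Esr1* cKO oil mice at an unadjusted p under 0.05, beside 5.58% of all genes in either direction. Their list summed to 1978, 1668 and 1553 CPM in the wild-type oil mice and to 2978, 2160, 3474 (library 12) and 1490 CPM in the *Esr1* cKO oil mice, the last below all wild-type oil mice. *Sgk1* of that list was at 268, 259 and 86.0 CPM in the wild-type oil and 759, 426, 1108 and 201 CPM in the *Esr1* cKO oil mice, with overlap.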

How the data were processed

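Drop-seq libraries of dissociated hypothalamus and preoptic area were made from 16 mice. The deposited files hold raw counts, UMIs per gene and barcode, which the authors made from their reads. The submitters' processing notes name STAR 2.6, Seurat 3.6.1 and the mm10 build. The study itself gives 3.6.1 as its version of R and another version for Seurat. The genes chosen as members' markers, the split genes and the gene lists were chosen with earlier results of these data known. Cells were filtered and chosen as stated above. For comparisons of conditions, UMIs of the mature oligodendrocytes were summed per mouse, genes were filtered with edgeR's filterByExpr, scaled by TMM and tested with the quasi-likelihood test of edgeR 4.0.16 (R 4.3.3) over all 4 groups. For the splits by *Klk6* and *Il33*, sums of at least 10 cells per library and side were tested with library as a term. P-values were Benjamini-Hochberg adjusted over all genes tested. Mice were handled over 4 days, but the labels do not give the day, so the reported tests have no term for it. P-values of the comparisons of conditions measure the spread between mice. Those of the splits measure how far the difference between the sides varied from library to library, counting error included. Shares were compared by exact permutation tests over mice (scipy 1.17.1). The alternatives were DESeq2 1.42.0, no filter on low counts, other cell rules, blocks of 4 successive library numbers as a term, leaving out each library, and thinning to 500 UMIs. Those without libraries 10 and 11 or without library 12 were chosen with earlier results known. Those without all 3, without shared barcodes, with barcode sets as a term or block, and with a term for libraries 10 and 11 were chosen after seeing the data. The text names the rule genes, the 12 largest changes each way among called genes without overlap and with a mean of 20 CPM or more, the 5 smallest p-values where fewer than 5 passed, examples of the list members past the threshold, and hormone receptor genes with *Ptgds*, *Klk6*, *Il33* and *Xist* per mouse. Genes named for an alternative setting were chosen after their values were seen. Positions are from GENCODE vM21. The models were tested on simulated data, and the outcome is not given here. Intervals of counts cover counting error only. Results on a few genes are not reported here.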

Additional observations from a re-analysis of the deposited data

Results flagged for a closer look

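In 111 groups of 4 or 5 mice, over 37 values of the mature oligodendrocytes, 6 groups had a mouse far from the others by Dixon's ratio (5.41%), and chance alone gives about 1 in 20. In *Esr1* cKO oil mice, *Xist* was at 0 CPM in library 12 and at 168 to 185 in the other mice. In the same group *Adi1* was at 319 CPM in library 12 against 194 to 215 in the others, and *Gper1* at 1.47 CPM in library 12, from 1 UMI, against 0 in the others. *Hbb-bt* was at 52.6 CPM in library 14 against 8.82 to 15.2, and *2810410L24Rik* at 47.1 CPM in library 4 against 53.7 to 54.4. In *Esr1* cKO tamoxifen mice *Gper1* was at 2.64 CPM in library 11, from 2 UMIs, against 0 in the others. Library 12 was thus apart in 3 of the 6 groups, and the cause was not tested.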

How the results depend on the processing

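Of the 30 single-gene results of the condition comparisons, 913 of 927 recomputed values kept their direction and side of the threshold, 14 newly passed and 0 reversed. Without the filter on low counts edgeR called 13 genes for tamoxifen in wild-type mice, 23 in *Esr1* cKO mice, 47 for the interaction, and 10, 15 and 5 between the genotypes in oil mice, in tamoxifen mice and over both. Without libraries 10 and 11 it called 4 genes for tamoxifen in *Esr1* cKO mice and 1 between the genotypes in oil mice, with a term for these libraries 6 for tamoxifen in *Esr1* cKO mice, without libraries 10 to 12 1 over both treatments, and without these and the shared barcodes 1 for tamoxifen in wild-type mice and 4 in *Esr1* cKO mice. DESeq2 called 1 over both treatments. With blocks of 4 successive library numbers edgeR called 0 in each of the 6 comparisons, with 292 to 469 genes at an unadjusted p under 0.05. Leaving out each library gave 0 to 1 calls for the interaction. The share difference between the genotypes was 3.70 to 5.44 points when each library was left out (adjusted p 0.0429 to 0.171) and 2.47 to 5.44 over all alternatives. Those with tamoxifen were 1.19 to 2.69 in wild-type and -6.77 to -3.29 in *Esr1* cKO mice when each library was left out, 5.44 and -6.77 being without library 12. Over the other alternatives they were 0.794 (more than 500 genes) to 2.70 (sets as a block) in wild-type mice and -7.73 (without libraries 10 to 12) to -4.06 in *Esr1* cKO mice. For the *Klk6* split the 762 calls became 221 after thinning, 2262 without the filter, and 681 to 826 when each library was left out. For the *Il33* split the 440 became 102 after thinning and 387 to 435. Of 4263 recomputed single-gene values of the splits, 3992 were unchanged in call and direction, 261 lost the call and 10 reversed. Without the filter, which shifts all genes by a median of -0.34, *Cox4i1* (-0.0920), *Fos* (-0.00639), *Kcnj10* (-0.10), *Ndufc2* (-0.0398), *Pdia3* (-0.0736), *Plekhb1* (-0.0909) and *Slc48a1* (-0.0303) reversed in the *Klk6* split, and after thinning *Aspa* (-0.0216), *Cox6a1* (-0.0155) and *Scd2* (-0.000552) did in the *Il33* split. Genes under about 20 CPM rest on few UMIs per mouse.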
